A study of Mus musculus with 4 samples.

Results

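The transcripts of the wild-type mouse mitral valve were described from a single oligonucleotide array hybridised with total RNA. The array carried the label Fbn1 +/+, meaning that both copies of the fibrillin-1 gene were wild type. It was 1 of 4 mitral valve arrays in the series, whose other 3 carried the labels Fbn1 C1039/+ (2 arrays, Het) and Fbn1 C1039G/C1039G (1 array, Hom). The labels did not give age, sex, strain or the number of valves pooled. Each probe set, a group of short probes that together read a transcript, had a linear intensity. Probe sets annotated to 1 gene were kept, each gene was represented by its brightest probe set, and the genes were ranked from the brightest, at rank 1. This gave 12393 genes, of which the 300 brightest, or 2.42%, are described here together with gene lists of the valve's cell types. With 1 array there is no replicate error and no test. Intensities also depend on how well each probe set binds, so a rank orders brightness and not numbers of molecules. In RNA from whole tissue, fewer cells of a type and less RNA per cell cannot be told apart.

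The mitral valve closes the opening between the left atrium and left ventricle. Its leaflets are built of collagen, proteoglycan and elastin layers made by interstitial cells and covered by endothelium, and the leaflet base is anchored in heart muscle. In pigmented mice the valve also holds melanocytes, and macrophages are resident in it.

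The ranked genes spanned intensities from 0.1 to 14497, with a median gene at 88.9. The gene at rank 300 read 1509, 17.0-fold above the median gene, and the 300 brightest genes held 33.4% of the summed intensity. As a gauge of background, 27 control probe sets for bacterial genes had a median of 3.9 and a maximum of 24.7. Of the 12393 genes, 9754 (78.7%) were brighter than that maximum. A list of 40 genes typical of other tissues, such as liver, pancreas, retina and testis, had a median intensity of 30.4 and a median rank of 9343. Its brightest member was Ahsg, a plasma protein made by the liver, at 407.5 and rank 1640. Prss2, a pancreatic protease, was next at 142.9. Only 18 of the 40 were at or under the bacterial maximum, so a reading above that maximum does not by itself show expression.

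**Figure D1:**
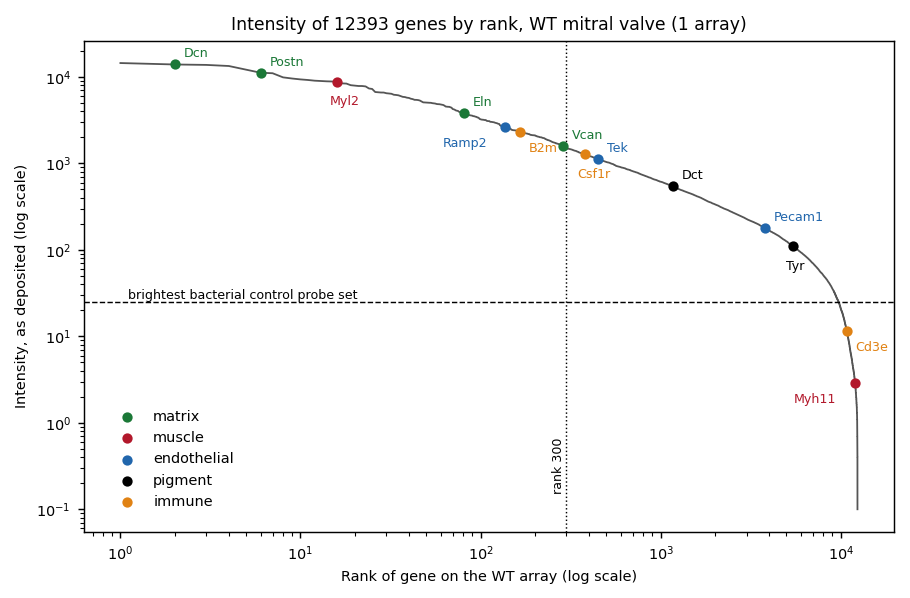
Intensity of 12393 genes (vertical axis, log scale) against rank on the WT array (horizontal axis, log scale), with named genes of 5 classes as coloured points. The dotted line marks rank 300 and the dashed line the brightest bacterial control probe set at 24.7; the matrix genes Dcn and Postn lie near the top of the curve and the T cell gene Cd3e lies below the dashed line.

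Of the 300 brightest genes, the largest listed groups were ribosomal protein genes (35), oxidative phosphorylation subunits (32), matrix genes (18) and muscle genes (16). In none of the main lists were 158. All such counts cover listed genes only. The respiratory chain gene ND5 (rank 44) and the initiation factor gene Eif3e (rank 66) were in no main list. Fau (rank 127), which encodes a ribosomal protein, was counted as a translation factor. Eef1a1, the factor that brings aminoacyl-tRNA to the ribosome, ranked first at 14497 among probe sets annotated to 1 gene. Next came the proteoglycan decorin (Dcn, 13955), the ribosomal protein gene Rpl41 (13795), Tpt1 (13400), the intermediate filament vimentin of mesenchymal cells (Vim, 12133), the matricellular protein periostin (Postn, 11204) and matrix Gla protein (Mgp, 11053), an inhibitor of calcification. Lgals1, a galactose-binding lectin, ranked 8 at 9903 and Col1a2, a chain of type I collagen, ranked 9 at 9598. With probe sets annotated to several genes counted as well, Eef1a1 ranked 10, Dcn 11 and Postn 24. Without probe sets that can bind several transcripts, Eef1a1 and Dcn stayed at 1 and 2 and Postn was at 4, but Rpl41 and Tpt1 went to ranks 6836 and 9879. Cytosolic ribosomal protein genes took 19 of the 50 brightest places and oxidative phosphorylation subunits 5. The other ribosomal genes among the 30 brightest were Rps28 (9378), Rps4x (9233), Rps2 (9062), Rps7 (8973), Rps14 (8909), Rps18, Rps29 (8038), Rpsa (7866), Rps3 (7864), Rps3a1 (7366), Rpl13a (7272), Rpl4 (6702), Rpl38, Rpl6 (6608) and Rpl7a. The endothelial and immune lists gave 1 gene each and the pigment list none. Translation factors gave 10 and cytoskeletal genes 11.

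Of the matrix genes in the 300, 13 lay in the first 100, so they were concentrated at the bright end. The number of genes outside the main lists rose along the ranks, from 7 in the first 50 to 41 in the last 50. Just inside the limit lay Vdac1 (1544), Rpn1 (1537), Psma2 (1527), Mcfd2 (1519) and Ackr3 (1509). Just outside it lay Paics (1508), Nop10 (1500), Clic4 (1499), Gnai2 (1498) and Lrpap1 (1486), so the limit falls within a run of closely spaced values.

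**Figure D2:**
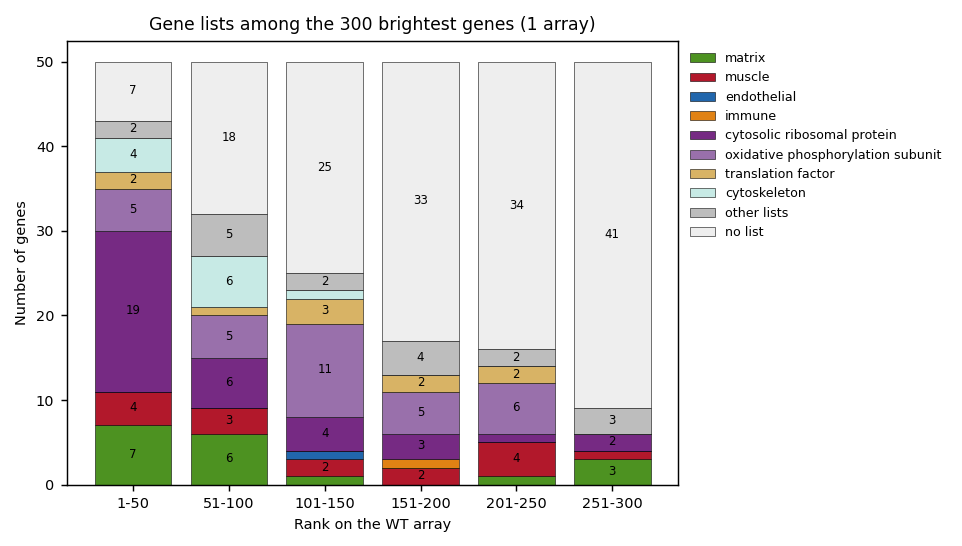
Number of genes of each list (stacked bars, vertical axis) in successive blocks of 50 ranks on the WT array (horizontal axis). Ribosomal protein genes fill 19 of the first 50 places, matrix genes 7, and genes in none of the main lists ("no list") rise from 7 to 41 of 50.

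Among the ribosomal protein genes, 35 of 48 measured members were in the 300, with a median rank of 95.5. Ribosomal protein messenger RNAs characteristically begin with a C followed by a run of pyrimidines, the terminal oligopyrimidine tract, through which growth signals control their translation. RefSeq promoter windows of build GRCm38.p6, running from 250 bases before to 50 after a start, were found for 246 of the 300 genes (325 windows). A C followed by at least 4 pyrimidines, on the coding strand between 5 bases before and 10 after the start, was present in 14 of 36 windows of the ribosomal genes in the 300 (38.9%). It was present in 27.7% of the windows of the 300 brightest genes, in 19.2% of those of the other measured genes and in 18.3% of all windows in the table. It was also present in 5 of 12 windows of matrix genes in the 300 (41.7%). A match can lie wholly before the start, as in the Rpl19 windows, or begin after it, as at base 5 in Rps2. These shares therefore do not count messenger RNAs that begin with the tract. The following starts of bright ribosomal genes are shown because a pyrimidine run can be read in them, with the run in capitals. They are Rps18 (chr17:33955646-33955670, minus strand), Rpl38 (chr11:114668575-114668599, plus strand), Rpl7a (chr2:26910802-26910826, plus strand) and Rpl35 (chr2:39005112-39005136, minus strand). The first 5 letters of each line lie before the annotated start, outside the annotated messenger RNA. The run begins at the start in Rpl38 and 2 bases before it in Rps18. In Rpl7a and Rpl35 it begins 5 bases before the start, at the edge of the line.
Rps18: ccgCTCTCTCTTCCacaggaggcct
Rpl38: tcgttCTTTCCCCgttctcttcggt
Rpl7a: CTTTCTTTCTCCagcagccgagcaa
Rpl35: CTTTCCTCTTTCTCTCgaaccaggc
These genes ranked 15, 28, 30 and 36, at intensities of 8871, 6613, 6489 and 6012. The median ratio of observed to expected CpG was 0.93 in the windows of ribosomal genes in the 300, against 0.68 in those of measured genes outside the 300. Rpl39l, a copy used in testis, was the dimmest ribosomal gene at 5.9.

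The mitochondrial respiratory chain and ATP synthase, on which the beating heart relies, were read by 77 subunit genes. Of these 32 were in the 300 and 71 in the brightest 25%, and the median rank was 386. Uqcrb of complex III led at 8437 (rank 17), and the complex IV subunits Cox6b1 and Cox7a2 followed at 5860 (rank 38) and 5607 (rank 41). Cox6b2, the testis form of Cox6b1, read 23.2, under the bacterial maximum. In glycolysis 3 of 12 genes were in the 300, Pgk1 (3921, rank 77), Aldoa (2142, rank 189) and Ldha (2112, rank 201). Of 17 cytoskeletal genes 11 were in the 300, among them the actins Actb (8388) and Actg1 (6439) and the actin-binding Tmsb4x (6396). That list also holds the lectin Lgals1, which is not a cytoskeletal protein.

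The matrix class held 155 measured genes, of which 18 were in the 300 (11.6%, against 2.42% of all genes) and 74 in the brightest 25% of genes (47.7%). Of all 8 matrix lists, the fibrillar collagens had the best median rank, 548, with 3 of 9 members in the 300. Beside Col1a2 these were Col3a1 (6140, rank 35), which forms the finer fibrils of elastic tissue, and Col5a2 (4262, rank 70), a chain of the collagen that regulates fibril width. Col1a1, the partner chain of Col1a2, read only 1268 (rank 388) by its brighter probe set and 1252 by the other. The cartilage collagen Col2a1 was the dimmest of the list, at 34.4 and rank 9069.

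The median rank of 18 measured genes of elastic fibres and microfibrils was 1176, and 14 of them were in the brightest 25%. Eln, the gene of elastin, was alone in the 300, at 3843 and rank 81, and its second probe set read 335. The next were Mfap2 (1409, rank 332), a microfibril-associated glycoprotein, Fbln5 (1101, rank 462), which links elastin to cells, Ltbp3 (1052, rank 492), a latent TGF-beta binding protein, and Mfap4 (897.3, rank 607). Fbn2, whose fibrillin is best known from development, read 516.7 at rank 1239. The cross-linking enzymes Loxl1 and Lox ranked 695 and 1144, and the 3 probe sets of Lox ran from 6 to 552.7. Efemp1 was the dimmest member, at 20.8, under the bacterial maximum. Fibrillin-1 was not analysed here.

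Proteoglycan and hyaluronan genes were split between very bright and dim members. Besides Dcn, the small leucine-rich proteoglycans biglycan (Bgn, 6196, rank 34) and lumican (Lum, 4416, rank 69) were in the 300, as was Vcan (1598, rank 286), the large hyaluronan-binding proteoglycan of the spongy layer. Ogn (1394, rank 339), Fmod (1011, rank 523), Prelp (820.7, rank 693) and Aspn (305.9, rank 2210) of the leucine-rich family followed. Acan, the cartilage proteoglycan, read 105.3 at rank 5592 and Hapln1, which links it to hyaluronan, 99.4. The hyaluronan synthases Has1, Has2 and Has3 read 92.2, 53.3 and 8.1. The list's median rank, 5804, was therefore close to the middle of all genes although 4 members were in the 300.

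Of 27 matricellular and adhesive glycoproteins, 5 were in the 300 and all 5 of them were in the first 100. After Postn and Mgp came fibronectin (Fn1, 5409, rank 45), Dpt (4873, rank 57), the gene of dermatopontin, a decorin-binding matrix protein, and the collagen-binding Sparc (4174, rank 72). No further member reached rank 700. Ccn2, a TGF-beta responsive gene, ranked 718 at 800.1, and Tnc, tenascin C, 4636 at 140. Matn1, Matn3 and Vtn lay under the bacterial maximum, at 8, 11.5 and 17.1.

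Postn has 2 start windows in the RefSeq table, and one of them carries a TATA box, the sequence that positions the polymerase. It is shown because Postn is the brightest matricellular gene and, of the 11 matrix genes of the 300 that had a window (18 in all), the one with TATAAA between 15 and 40 bases before a start, on the coding strand. The stretch is chr3:54361062-54361106 of GRCm38.p6, plus strand, with the box in capitals.
Postn: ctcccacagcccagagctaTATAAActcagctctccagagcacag
At that position the box was present in 2.15% of windows of the 300 brightest genes, 2.46% of those of the other measured genes and 1.99% of all windows. On either strand and anywhere in the window, TATAAA was present in 13.8%, 9.71% and 13.6%.

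Among enzymes that process collagen, P4hb, a subunit of prolyl hydroxylase and a disulphide isomerase, ranked 84 at 3815. The others included Pcolce (1072, rank 478), which enhances procollagen cleavage, Crtap (788.3) and the collagen chaperone Serpinh1 (772.8, rank 752). The list had a median rank of 1685 and no member of its 13 at or under the bacterial maximum. Of 29 proteases and inhibitors, the gelatinase Mmp2 (2557, rank 144), its membrane-bound activator Mmp14 (1964, rank 225) and the inhibitor Timp2 (1651, rank 276) were in the 300. Timp3 (1438), Htra1 (1431), Ctsk (1079) and Timp1 (1028) lay within rank 600. The dimmest was Mmp10, at 7. The gelatinase Mmp9 of inflammatory cells read 37.2, and the collagenase Mmp13 16.7.

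Of 20 basement membrane genes, only Col4a1 was in the 300, at 1702 and rank 265. Its partner Col4a2 read 588.9, and Nid1, the linker of laminin and collagen IV, 856. Lama4, a laminin chain of vessels, was the brightest laminin at 486, followed by Lamc1 at 423.5 and Lamb1 at 310.8, while Lama1 read 3.4. Among 16 other collagens the 3 chains of type VI collagen, a beaded filament of interstitial matrix, ranked 363, 508 and 509, at 1317 (Col6a1), 1029 (Col6a3) and 1028 (Col6a2). Col14a1 read 935.7 and Col18a1 783.1. Col12a1 read 73.3 at rank 6850, and Col9a2 was the dimmest at 1.7.

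**Figure D3:**
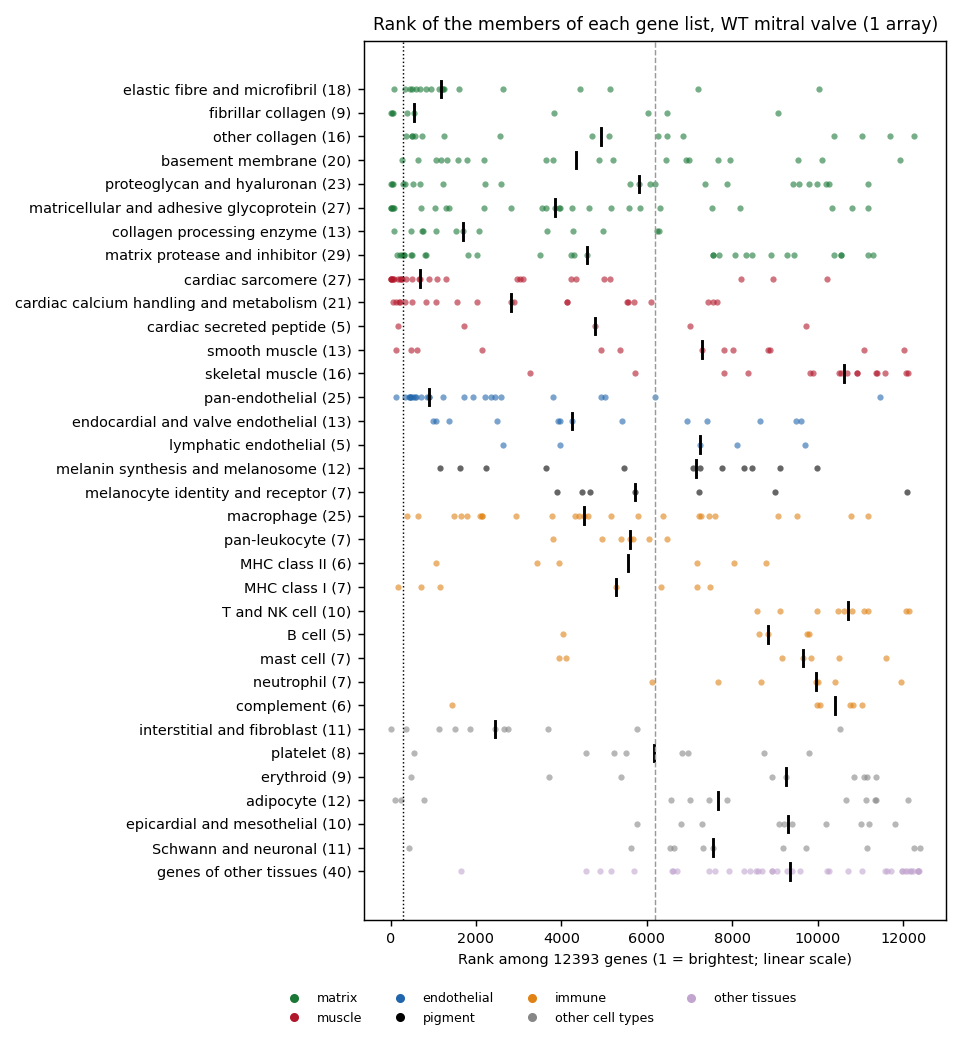
Rank of each measured member (points) of the gene lists on the WT array (horizontal axis, linear, 1 = brightest), with the number measured beside each list name and the list's median as a black bar. The dotted line marks rank 300 and the dashed line the middle gene; the pan-endothelial, cardiac sarcomere, elastic fibre and fibrillar collagen lists have their medians at the bright end, and the skeletal muscle and T and NK cell lists at the dim end.

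Cardiac muscle genes were also bright in the valve sample. Of 27 cardiac sarcomere genes 10 were in the 300, and the list's median rank was 684. The ventricular light chain Myl2 ranked 16 at 8775, cardiac actin (Actc1) 20 at 7960, tropomyosin Tpm1 23 at 7779 and the light chain Myl3 42 at 5548. The other probe sets of Tpm1 read 255.2 and 81.8, and its rank was 1908 with the median of its probe sets and 1777 without those that can bind several transcripts. The thin-filament genes Tnnc1 and Tnnt2 followed at 4956 and 4077. The heavy chain Myh6 read 2226 (rank 179) by one probe set and 11.1 by its other, and Tnni3, the adult cardiac troponin I, 1841 (rank 241). The light chains of the atrium, Myl4 and Myl7, were in the 300 as well, at 1976 and 1673. Tnni1, the troponin I of the fetal heart, ranked 351 at 1350, and the heavy chain Myh7 of the fetal ventricle 3039 at 224.8.

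In the calcium handling and metabolism list 4 of 21 genes were in the 300. These were myoglobin (Mb, 4850, rank 58), the calcium pump Atp2a2 (2950, rank 121), the fatty acid carrier Fabp3 (2077, rank 204) and phospholamban (Pln, 1973, rank 222), which restrains that pump. The channel gene Ryr2 read 161.6 and Slc8a1, the sodium-calcium exchanger, 57. Natriuretic peptide A (Nppa), a hormone of the atrium, ranked 168 at 2316. Nppb read 389.2, the C-type peptide gene Nppc 133.5 and Bmp10, a growth factor of the atrial and trabecular wall, 25.4.

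Smooth and skeletal muscle genes were mostly dim. The smooth muscle actin Acta2, also a myofibroblast gene, ranked 134 at 2669 by one probe set and read 23.2 by the other, which put it at rank 8028 without probe sets that can bind several transcripts. Myl9 and Tagln, which myofibroblasts share with smooth muscle, read 1070 and 882.9. The markers of mature smooth muscle were dim, with Cnn1 at 54.2, Lmod1 at 8.8 and the heavy chain Myh11 at 2.9 by its brighter probe set. Of 16 skeletal muscle genes 12 were at or under the bacterial maximum, among them Myh4 at 2.5, and none was in the brightest 25%. The exception at the bright end was Acta1, the skeletal actin that heart muscle also makes, at 211 and rank 3263.

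A CArG box, the site bound by serum response factor in many muscle genes, was searched in the same windows (the motif reads alike on both strands). It was present in 3 of 19 windows of the 15 muscle genes of the 300 with a window (15.8%), in 2.77% of windows of the 300, in 1.44% of those of other measured genes and in 1.63% of all. The matches, with the box in capitals, are printed because all 3 are sarcomere genes and each lies within 100 bases before the start. Actc1 is at chr2:114052898-114052937 (minus strand), Myl3 at chr9:110763578-110763617 (plus strand) and Myl7 at chr11:5898819-5898858 (minus strand).
Actc1: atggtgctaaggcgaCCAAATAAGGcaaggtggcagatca
Myl3: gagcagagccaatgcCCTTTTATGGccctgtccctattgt
Myl7: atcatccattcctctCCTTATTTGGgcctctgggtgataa
The boxes began 47, 85 and 61 bases before the start. The windows of the muscle genes had a median observed to expected CpG ratio of 0.24 and those of the matrix genes in the 300 of 0.39, both below the 0.68 of other measured genes. A match describes the letters in the window and does not show that the site is bound.

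**Figure D4:**
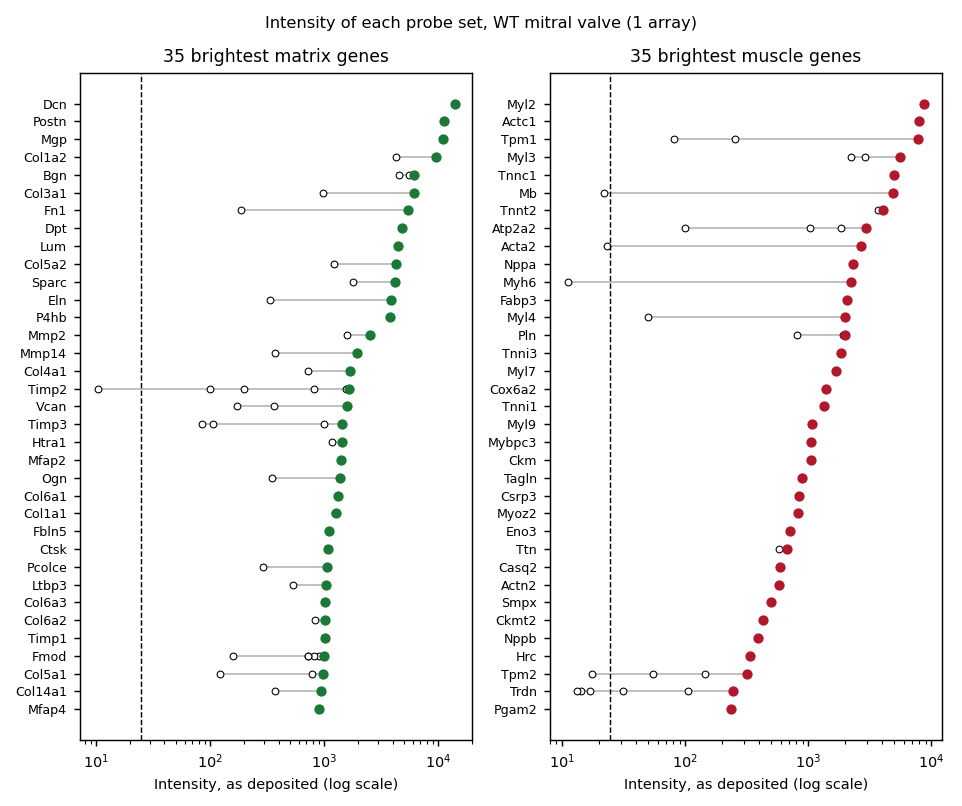
Intensity on the WT array (horizontal axis, log scale) of the 35 brightest matrix genes (left) and muscle genes (right), with the brightest probe set of each gene filled and its other probe sets open, joined by a line. The dashed line is the brightest bacterial control probe set; the second probe sets of Acta2 and Myh6 read 23.2 and 11.1, below it, whereas those of Bgn and Tnnt2 lie close to the brightest.

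Pan-endothelial genes were mostly in the brighter part of the ranking, from 2646 down to 5.9. Only Ramp2, the co-receptor for adrenomedullin in endothelium, was in the 300, at 2646 and rank 136, yet 13 of 25 pan-endothelial genes were in the first 1000 and 20 in the brightest 25% (80%). The median rank was 906. Eng (1365, rank 347), a TGF-beta co-receptor, the flow-induced factor Klf2 (1176), the angiopoietin receptor Tek (1117), Ptprb (1111), Cd34 (1065) and the nitric oxide synthase Nos3 (1007) followed. The VEGF receptor Kdr read 703.5, von Willebrand factor (Vwf) 662.7 and the junction genes Cdh5 and Pecam1 279.6 and 178.1. Erg was the dimmest of the list, at 5.9.

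Genes of endocardium and valve endothelium ranked lower, with 4 of 13 in the brightest 25% and a median rank of 4249. Notch1, a receptor whose mutation causes aortic valve disease, read 613.3 (rank 1005), Smad6, an inhibitor of BMP signalling, 591, and Nfatc1, a factor needed for valve formation, 472.9. The Notch ligands Dll4 and Jag1 read 27.9 and 26.6, just above the bacterial maximum. Of the lymphatic markers, Flt4, which other endothelia also make, read 259.1 and Prox1, the defining factor, 25.5.

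Pigment genes were not among the 300, but 3 melanin genes were in the brightest 25%, where the gauge of other tissues had 1 of 40. Dct, an enzyme of melanin synthesis, read 543 (rank 1165), the melanosome fibril protein Pmel 410.5 (rank 1628) and Tyrp1, a further enzyme of melanin synthesis, 304.6 (rank 2223). Dct was brighter than each of the 40 genes of other tissues, Pmel was level with the brightest of them, Ahsg (407.5), and Tyrp1 was brighter than all of them but Ahsg. Ahsg ranked above Pmel on the other 3 arrays, so their order carries no weight. On the Het array titled Fbn1Het2, Ahsg also ranked above Dct, at 720 against 863. The transporter Slc45a2 read 187.7 and Tyr, the rate-limiting enzyme, 109.8 with 3 probe sets from 15 upward. The receptors Kit and Ednrb read 173.1 and 147.2, and the melanocyte factors Mitf and Sox10 139 and 101.3, but mast, endothelial and glial cells use several of these too. Oca2 read 65, Mlph 68.7, Tfap2a 65.3, Trpm1 54.9, Rab27a 47, Rab38 43.9, Pax3 35.4 and Myo5a 33.9. Gpr143 (21.6) and Mc1r (2.6) lay at or under the bacterial maximum. The median rank of the 19 genes was 7072, with 3 (15.8%) in the brightest 25%.

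Immune genes were mostly dim, and 9 of their 14 members in the brightest 25% were macrophage genes. In the immune class 1 of 80 genes was in the 300 (1.25%), B2m, the light chain of MHC class I, which most cells make, at 2322 and rank 166. With B2m, the class I genes H2-D1 (794.4, rank 725) and H2-K1 (543.8, rank 1164) put 3 of that list's 7 genes in the brightest 25%. The 25 macrophage genes had a median rank of 4531, with 9 in the brightest 25%. Csf1r, the receptor that keeps macrophages alive, read 1282 (rank 380) by its brightest probe set, but 258.4 and 181 by its others. The next were the protease Ctss at 855.2 (rank 651) and the complement genes C1qb, C1qc and C1qa at 446.5, 407.7 and 369.9. Adgre1, the F4/80 antigen, read 322.7, the mannose receptor Mrc1 315.9 and Lyz2 314.5. Further members read lower, among them Cd68 (99.8), Spi1 (65.6), Folr2 (64.6), Aif1 (58) and Fcer1g (34.6). Ccr2, a receptor of recruited monocytes, read 27.6, Cd163 11.6 and Itgam 8. None of 7 pan-leukocyte genes was in the brightest 25%, their median rank was 5609, and Ptprc read 127.6. The MHC class II gene H2-Aa read 590.5 (rank 1057) by its brighter probe set and 70.1 by the other. It was the only 1 of 6 measured class II list genes in the brightest 25%, and the list's median rank was 5553. H2-Eb1 read 201.9, Cd74 171.1, H2-Ab1 66.7 and H2-DMa 50.4, while Ciita, their activator, read 38.8.

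Most lymphocyte and granulocyte markers were near background. Of 10 T and NK cell genes 8 were at or under the bacterial maximum, with Cd3e at 11.4, Cd3d at 2.7 and Cd3g at 2.2. Ighm read 166.4 by the brightest of 11 probe sets, but the B cell genes Cd79a and Ms4a1 read 41.5 and 38.3. Of 7 neutrophil genes 4 were at or under the bacterial maximum, including S100a9 (21.8) and S100a8 (16.3), while Ngp read 91.3, Mpo 56.4 and Ltf 40.8. The mast cell proteases Cpa3 and Cma1 stood out at 171.4 and 162.2, whereas the other 5 mast cell genes read 33.3 or less. Serping1, an inhibitor of complement, was at 452.9 and the other 5 measured genes of the complement list were at or under the bacterial maximum. The brighter C1q genes were counted in the macrophage list instead.

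**Figure D5:**
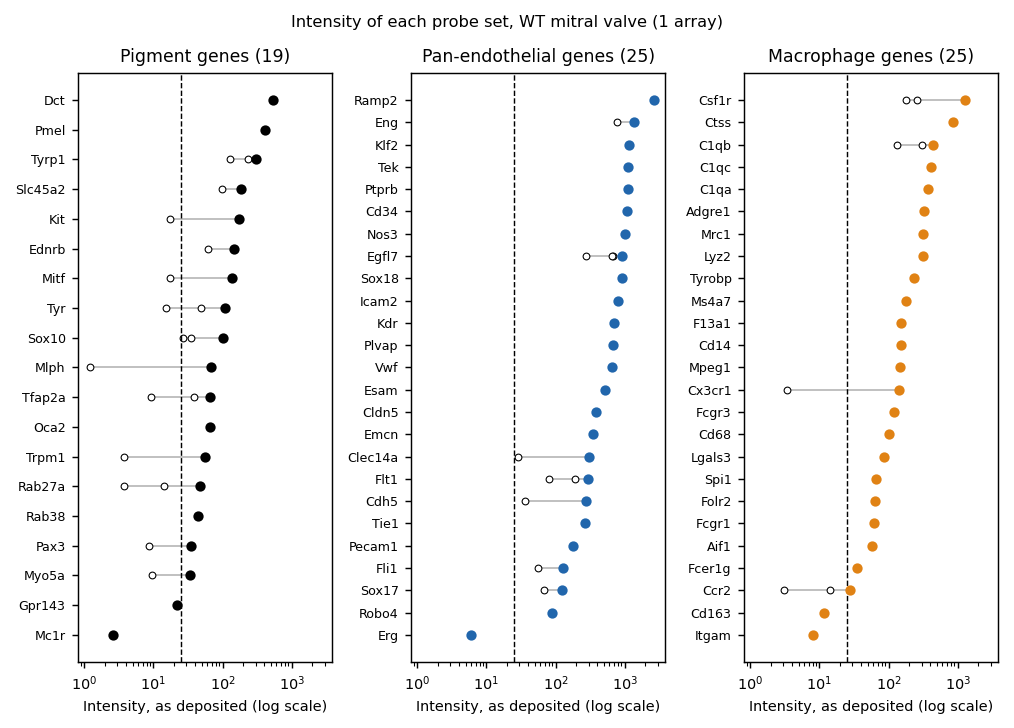
Intensity on the WT array (horizontal axis, log scale) of 19 pigment, 25 pan-endothelial and 25 macrophage genes, with the brightest probe set filled and others open. The dashed line is the brightest bacterial control probe set at 24.7. It is exceeded by 17 pigment genes, 24 pan-endothelial genes and 23 macrophage genes, and by 78.7% of all genes. Only 18 of the 40 genes of other tissues lay at or under it.

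Markers of other cells that a dissected valve could carry were examined beside these lists. In the interstitial and fibroblast list 8 of 11 genes were in the brightest 25%, led after Vim by Pdgfra (1330, rank 356) and the homeobox gene Meox1 (553.7). The fat cell markers Adipoq, Plin4, Cidec and Lep read 6.4, 60.9, 13.1 and 8.4, whereas Car3 (3177, rank 107) and Lpl (1767, rank 251), which muscle also makes, were in the 300, and Fabp4, also an endothelial gene, read 743.8 (rank 783). Of the 12 adipocyte genes 3 were in the brightest 25%, and the list's median rank was 7668.5. Which cells gave the Car3, Lpl and Fabp4 readings was not tested. Of 10 epicardial and mesothelial genes none was in the brightest 25%, and Wt1 read 4. The myelin gene Pmp22, also made by fibroblasts, read 1157, but the neuronal genes Nefm and Snap25 read 1.7 and 0.4. The platelet chemokine Pf4 ranked 552 at 964.7 and the erythroid enzyme Alas2 484 at 1065, but each was the only member of its list in the brightest 25%. The 8 platelet genes had a median rank of 6175.5, and the 9 erythroid genes one of 9247, with 4 at or under the bacterial maximum.

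Globin, the oxygen carrier of red cells, was brighter than any ranked gene. The brightest probe set on the whole array, at 17082, was annotated to the alpha-globin genes together and was therefore not ranked, and 3 such alpha-globin probe sets read between 3344 and 17082. A beta-globin probe set annotated to several genes read 14806. In all, 105 probe sets annotated to several genes and 27 with no gene listed were as bright as rank 300, and 62 of the 105 included a ribosomal protein gene. The dim ranks of some ribosomal and globin genes hold for their remaining probe sets only.

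Probe sets of a gene often differed widely. Of the 300 genes 204 had several probe sets, with a median of 9.27-fold between the brightest and the dimmest, and 137 exceeded 4-fold. The brightest list members with such a spread were Rpl41, whose dimmest probe set read 41.9, Tpt1 (4.1), Vim (2415), Rps4x (5.5) and Rps7 (1801). Of all 12393 genes 4956 had several probe sets, with a median of 4.6-fold. The 300 were chosen by their brightest probe set, the upper end of this fold. The rule itself therefore favours genes with several probe sets and a wide spread. A gene with 1 probe set had no second reading to choose from. As the only gauge of variation between arrays, the same rule was applied to the other 3 arrays, whose genotypes differ. Of the 300 genes 222 were among the 300 brightest on all 4 arrays and 291 stayed within rank 600. The rank of Dcn ran from 1 to 4 over the 4 arrays, that of Postn from 6 to 37, Eln from 81 to 332, Myl2 from 5 to 132 and Dct from 863 to 1370.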

How the data were processed

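Each probe set's intensity was used as deposited, on a linear scale; which program computed it is not given in the sources used here. The mean intensity after leaving out 2% at each end was 150.1 on each of the 4 arrays. The ranking was made within 1 array, so a scale factor does not change it. Gene names came from the platform's annotation table, and 20364 probe sets had an identifier found in RefSeq. Of 22690 probe sets, 64 were controls, 20393 had 1 gene, 691 several and 1606 none. No filter or floor was applied. The 3' to 5' intensity ratio of the control probe sets, a gauge of RNA integrity and labelling, was 2.25 for Actb and 4.18 for Gapdh. Precision is limited by the number of arrays, 1, and no test was run. The ranking step was tested on simulated data.

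Members and lists were chosen with earlier results of these data known; the lists held 855 genes, of which 777 were measured. Named genes were the 30 brightest, the bright and dim ends of each list, members of the 5 main classes in the 300, all pigment genes, those around rank 300 and examples of probe set spread. Further genes were named after their values were seen. Alternatives changed the value that stands for a gene and the probe sets entered. Python 3.11.15, pandas 2.3.3 and matplotlib 3.10.9 were used.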

Additional observations from a re-analysis of the deposited data

How the results depend on the processing

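With the mean or the median of all probe sets of a gene in place of the brightest, 240 and 232 of the 300 genes were shared, and the matrix, muscle and immune counts stayed within 1.5 times of those given. The endothelial count in the 300 became 3 with the mean and 4 with the median. Without probe sets that can bind several transcripts, which read 192 of the 300 genes, 10529 genes were ranked and 141 of the 300 were shared. The matrix count was then 28, the endothelial count 7 and the ribosomal count 6, against 35; the cause was not tested. Of the genes whose ranks were followed singly, 48 moved by over 1.5 times in rank with the mean, 55 with the median, 46 without such probe sets and 69 in the setting that follows. With probe sets annotated to several genes counted for each gene, 13319 genes were ranked and 142 of the 300 were shared. The muscle count was then 9 and the immune count 0. No pigment gene was in the 300 under any of these 4 alternatives. Over them the median rank ran from 2746 to 4046.5 for matrix genes, 3245 to 4614 for muscle, 1544.5 to 2973 for endothelial, 5735 to 7742 for pigment and 6573.5 to 7798 for immune genes, with the number of genes ranked changing too. No paired analysis was possible because the WT group has 1 array and no comparison between groups was made, and no array could be left out. Genes at or under the bacterial control maximum have no meaningful order.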

Other observations

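Of 10 insulin-like growth factor genes 6 were in the brightest 25% and 4 in the 300: the growth factor Igf2 (5044, rank 51), the binding proteins Igfbp4 (4046) and Igfbp7 (3953), and Igf1 (1996, rank 219). By their dimmest probe sets Igf2 read 63.7, Igfbp4 13, Igfbp7 19 and Igf1 263.9. The receptor Igf1r read 50.1. A list of 13 imprinted growth-related genes, added after the data were seen, had a median rank of 794 and 9 members in the brightest 25%. By their brightest probe sets Plagl1, a zinc finger factor, read 2775 (rank 128), Grb10 1386, Peg3 964.8 and Ndn 735.7. Their dimmest probe sets read only 3.9, 30.6, 7.5 and 25.7, in the same order. Cdkn1c, a cell cycle inhibitor, read 132.7, Dlk1 52.2, Zim1 17.1 and Peg10 15.1, the last 2 of them under the bacterial maximum. Of 16 cell cycle genes 10 were in the brightest 25%, including Pcna (1707, rank 263), the mitotic kinase Cdk1 (584.9), Top2a (561.4) and the proliferation marker Mki67 (540.9).

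Signalling and stress genes covered a wide range. Among TGF-beta and BMP genes, 14 of 24 were in the brightest 25%, led by the receptor Tgfbr2 (1446, rank 321), the target gene Id3 (1289) and the activin subunit Inhba (1116). The other probe sets of Tgfbr2 read 17.6 and 5.9. Tgfb2 and Tgfb3 read 253.2 and 249.6 and Tgfb1 109.3. Of the valve and cushion transcription factors Zeb1 (1204), Gata6 (557.1) and Gata4 (433.3) were brightest, and Twist1, Sox9 and Scx read 85.9, 51.6 and 47.3. Tnmd, tenomodulin, read 144.2. Of 24 immediate early genes none was in the 300; Rhob (894.1), Jund (625.1) and Klf4 (589.7) led, and Fos and Fosb read 196.8 and 32.8. Of 13 heat shock and chaperone genes the constitutive Hspa8 (5725, rank 40), Hspa5 (3603) and Dnaja1 (1703) were in the 300, whereas the inducible Hspa1b and Hspa1a read 135.9 and 91.8.

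Of the 300 genes 158 were in none of the main lists, 24 of which were in lists added after the data were seen. Among the rest, and named after their values were seen, Tm4sf1, a membrane protein, ranked 27 at 6647, Apoe, an apolipoprotein, 56 at 4931, and Fstl1, a secreted follistatin-like protein, 60 at 4811. Lists of the secretory pathway and the proteasome, also added after the data were seen, gave 6 of 18 and 3 of 18 genes in the 300, with median ranks of 534 and 529. The list of mitochondrial carriers and porins, added likewise, gave 6 of 36, with a median rank of 4174. Added lists of heterogeneous nuclear ribonucleoproteins and initiation factor 3 subunits gave 5 of 18 and 3 of 11, with median ranks of 1316.5 and 569. The thrombin receptor F2r (2642, rank 137), prostacyclin synthase Ptgis (1792, rank 248), caveolin Cav1 (1795, rank 247) and the water channel Aqp1 (1636, rank 277) were likewise in no list.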
